A study of Homo sapiens with 40 samples.

Results

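The urea cycle genes examined here were the 10 genes CPS1, OTC, ASS1, ASL, ARG1, NAGS, SLC25A15, SLC25A13, GLS2 and GLUL, chosen by name from the 56568 gene names in the deposited expression tables. The question was whether a decrease of CPS1 in HepaRG cells exposed to PCB 126 was shared by the rest of the pathway, and how the same genes behaved across all 8 treatment groups. HepaRG cells (HPR 116, bought already differentiated) are an established line of human liver origin, and cultures hold biliary-like cells beside hepatocyte-like ones. Cultures were exposed from day 8 to day 14, that is for 6 days, in a medium with serum and DMSO that the control group received too. Each group had 5 RNA-seq libraries, 40 in all. One group received solvent only, 3 received PCB 126 (at 100 pM, at 10 nM or at 1 µM), 3 received glyphosate (the lowest dose 10 µg/L, the middle dose 1 mg/L, the highest dose 0.1 g/L), and 1 received Roundup, also at 10 µg/L. All libraries come from 1 cell line, the labels do not say whether the 5 libraries of a group were separate cultures, and the p values therefore measure only the spread between these libraries. The same 5 control libraries serve the PCB 126 and the herbicide comparisons, so those comparisons are not independent of each other.

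The urea cycle turns ammonia, which is toxic, into urea, and it runs in full mainly in hepatocytes. CPS1 joins ammonia and bicarbonate in the mitochondrion and is switched on by N-acetylglutamate, the product of NAGS. OTC makes citrulline from carbamoyl phosphate and ornithine, ASS1 and ASL build and split argininosuccinate in the cytosol, and ARG1 releases urea and returns ornithine. SLC25A15 carries ornithine and citrulline across the inner mitochondrial membrane, and SLC25A13 exports aspartate from the mitochondrion for ASS1. GLS2 frees ammonia from glutamine in periportal hepatocytes, and GLUL, in pericentral hepatocytes, binds the ammonia that escapes the cycle as glutamine. PCB 126, a polychlorinated biphenyl of the dioxin-like kind, activates the aryl hydrocarbon receptor (AhR), glyphosate is a herbicide, and Roundup is a commercial formulation of it.

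Expression was given as FPKM, fragments per kilobase of transcript scaled to the mapped fragments of the library, so levels of different genes are compared per length. The tables hold no read counts, so the depth behind a value is not known from them, and the number of libraries limits the precision. Summed FPKM per library lay between 255292 and 513059, and no pair of libraries held identical values. Transcript values were summed per gene, and the test was limma on log2(FPKM + 1) with Benjamini-Hochberg adjustment over all genes with a variance of FPKM above 1 in a table, 9755 genes for PCB 126 and 9533 for the herbicides. A gene was called changed at an adjusted p under 0.05. Fold changes refer to log2(FPKM + 1), on which changes of genes with few FPKM look smaller than they are. GLS2 (variance 0.911 in the PCB 126 table) and NAGS (0.00796) did not pass the variance filter, so 8 of the 10 members were tested and these 2 are given by their values.

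The exposure could be followed in the AhR target CYP1A1, a monooxygenase. Its FPKM was 7.69, 3.76, 0.175, 0 and 0 in the controls and between 85.2 and 389 at 1 µM, and it did not exceed 6.48 in the 20 glyphosate and Roundup libraries. At 100 pM it was 70.9, 36.4, 3.21, 1.09 and 319, so the fifth library labelled 100 pM stood within the range of the higher doses. Leaving that library out moved the log2 fold change of CPS1 at 100 pM from -0.32 to -0.20 and the slope of CPS1 over dose steps from -0.40 to -0.41. At 1 µM hepatocyte markers and biliary or progenitor markers were both lower by median log2 fold change, -0.96 and -0.87 beside -0.26 for all genes. Lower values were found in 9 of 12 and in 5 of 5 tested genes of these lists, and in 79.2% of all tested genes. These counts therefore set neither list apart. The summed FPKM of 12 hepatocyte markers ranged from 14678 to 21378.5 in the controls and from 5721 to 14549 at 1 µM. Of the 12, 4 were called lower (AHSG, APOA2, FGB and TTR) and 1 higher (TAT), beside 119 lower (1.22%) and 63 higher of all 9755 tested genes. TAT passed the variance filter only through the PCB 126 libraries, so its call is no support for the list. The summed FPKM of 10 biliary or progenitor markers ranged from 326 to 654 in the controls and from 207 to 341 at 1 µM, with EPCAM, PROM1 and CFTR below 1 FPKM in all 40 libraries and none of the 5 tested called. Of 8 fibroblast or stellate markers 6 were tested and 1, COL3A1, was called lower, with a summed FPKM of 41.05 to 91.9 in the controls and 50.8 to 190 at 1 µM. For the 4 endothelial and the 4 immune markers the highest summed FPKM over these 2 groups were 5.22 and 7.16, with PECAM1, VWF and CDH5 and, among the immune markers, PTPRC and CD3E below 1 FPKM throughout, and the 1 tested gene of each list was not called. In bulk RNA, fewer hepatocyte-like cells and less RNA of these genes per cell cannot be told apart, and the part of the cell mixture in the member results was not tested.

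In the control group the members spanned more than 2 orders of magnitude per length. ASS1 was the most abundant at 125 ± 30.8 FPKM (mean ± SD, n = 5), followed by GLUL at 69.5 ± 7.40. ASL at 29.8 ± 11.8 and SLC25A13 at 25.3 ± 4.99 had overlapping ranges and stood apart from both the genes above and the genes below. CPS1 at 6.64 ± 2.58, SLC25A15 at 3.64 ± 1.70, OTC at 3.28 ± 0.858, ARG1 at 2.54 ± 0.490 and GLS2 at 2.32 ± 0.855 formed a run in which each overlapped its neighbour. NAGS was lowest at 0.275 ± 0.0715. The first enzyme of the cycle was thus well below ASS1 per length in these cells.

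**Figure D1:**
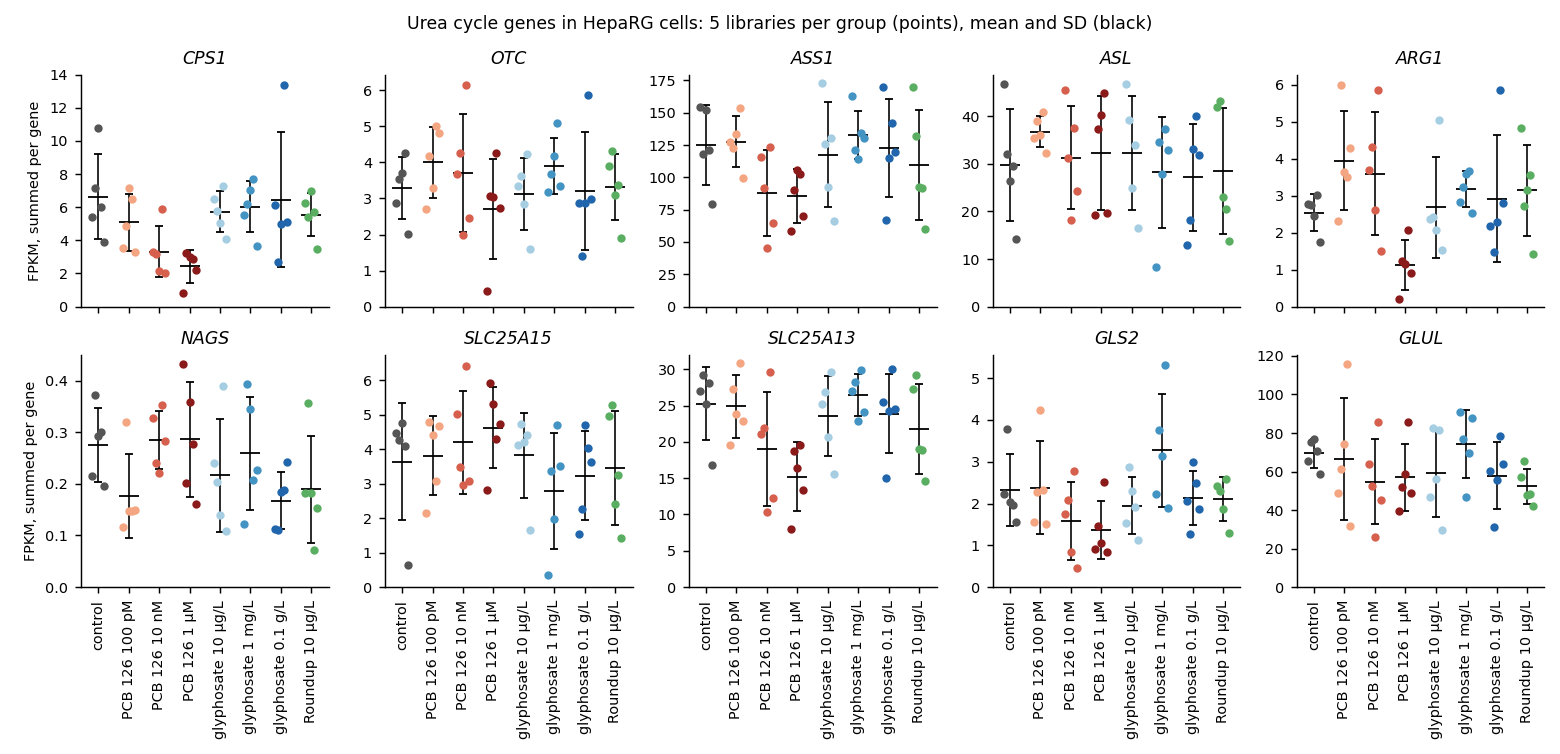
FPKM of each of the 10 members (vertical axis, summed per gene, 1 panel per gene) in the 8 groups (horizontal axis), with 1 point per library and the mean ± SD of 5 libraries in black. CPS1 at PCB 126 1 µM (0.798 to 3.22) lies below every control library (3.90 to 10.8), while the treated and control ranges of the other 9 members overlap in all 7 treatments.

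CPS1 (chr2:210477682-210679107, plus strand, GRCh38) was the only member called by limma in a comparison with the control group. Its FPKM was 5.39, 7.16, 10.8, 6.01 and 3.90 in the 5 control libraries. At 100 pM it was 3.55, 4.87, 7.18, 6.50 and 3.28, which overlapped the controls. At 10 nM it was 3.32, 3.17, 2.17, 5.89 and 2.05, with 4 of 5 libraries below the lowest control. At 1 µM it was 0.798, 3.22, 3.00, 2.89 and 2.20, and all 5 libraries lay below the lowest control. The mean at 1 µM was 36.5% of the control mean, with a log2 fold change of -1.16 (SE 0.297, limma adjusted p = 0.0385).

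At 10 nM the log2 fold change of CPS1 was -0.83 (SE 0.297, limma adjusted p = 0.642), and at 100 pM it was -0.32 (SE 0.297, limma adjusted p = 1). The exact permutation test over all splits of 5 against 5 libraries, 2-sided, gave p = 0.00794 at 1 µM, the smallest it can give, and p = 0.0238 at 10 nM. Over the dose steps from control to 1 µM, CPS1 fell by 0.40 per step on the log2 scale (SE 0.0896, limma adjusted p = 0.0094), and the slope stayed past the threshold when any single library was left out and under all 10 other settings. The call at 1 µM was less firm: it was lost when control library 1, 2, 3 or 4, library 2 of 100 pM, or library 1 or 5 of 1 µM was left out (adjusted p from 0.0516 to 0.136), with the fold change between -0.94 and -1.30 over all 20 such fits. CPS1 also lost the call in 4 of 11 other settings, at adjusted p between 0.0505 and 0.112. The order of the 8 group means of CPS1 ran from control (6.64) through glyphosate at 0.1 g/L, 1 mg/L and 10 µg/L and Roundup to PCB 126 at 100 pM, 10 nM and 1 µM (2.42), and each group overlapped the next in this order.

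Measured against all genes, 182 of the 9755 genes tested were called at 1 µM (1.87%), of which 119 were lower (1.22%) and 63 higher. The 1 called member of 8 is to be read against that share. At an unadjusted limma p under 0.05 there were 3 of the 8 members (CPS1, ARG1 and SLC25A13), beside 1322 of the 9755 genes. No overlap with the controls in the lower direction, the pattern of CPS1, was found for 160 of the 9755 genes (1.64%). At 10 nM 20 genes were called (0.205%) and no member. At 100 pM limma called 0 genes (0%), with 116 at an unadjusted p under 0.05, and no member. In the trend over dose steps 369 genes were called (3.78%), 279 of them lower (2.86%), CPS1 among the latter and no other member. Across the 4 PCB 126 groups 136 genes were called (1.39%) and no member, with CPS1 at adjusted p = 0.124 and ARG1 at 0.0552 (limma F-test). With a block by run of library numbers both passed, CPS1 at 0.0352 and ARG1 at 0.0199, but 270 of all 9755 genes were then called.

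At 1 µM the log2 fold changes of all tested genes had a median of -0.26, and 79.2% of genes were lower, so a member at -0.26 stood at the middle of the transcriptome. Scaling each library by its 75th percentile moved this median to -0.12 and quantile normalization moved it to -0.01, and the calls then split into 345 lower and 247 higher, and 553 lower and 532 higher. The median of the 8 tested members was -0.43, and 6 of the 8 lay below the median of all genes. At 10 nM the members' median was -0.17 beside -0.21 for all genes, and at 100 pM it was 0.10 beside 0.07.

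**Figure D2:**
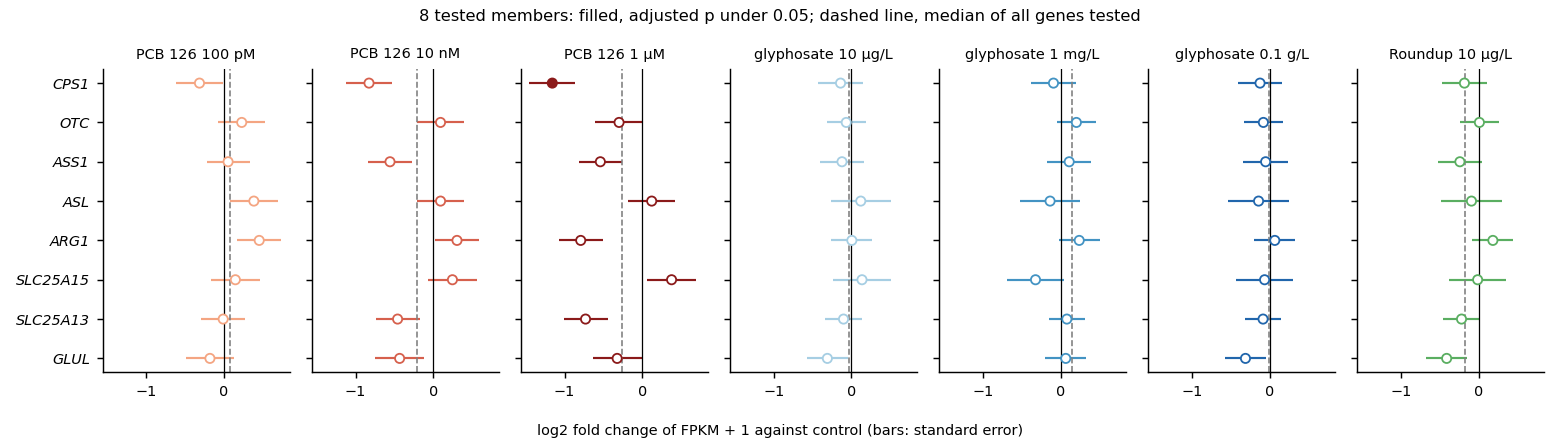
Log2 fold change of FPKM + 1 against control (horizontal axis, with standard error bars) for the 8 tested members (rows) in the 7 treatments (panels), with filled points at an adjusted p under 0.05 and a dashed line at the median of all genes tested. The single filled point is CPS1 at PCB 126 1 µM, at -1.16.

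The enzymes downstream of CPS1 did not share 1 pattern. ARG1 (chr6:131573144-131584332), the final enzyme, was 2.78, 2.74, 2.44, 3.02 and 1.75 FPKM in the controls. At 100 pM it was 2.33, 5.99, 3.64, 3.51 and 4.28, and at 10 nM it was 3.70, 4.32, 2.62, 5.87 and 1.498. At 1 µM it was 0.210, 1.23, 1.16, 2.08 and 0.913. ARG1 was above all controls in 4 of 5 libraries at 100 pM and in 3 of 5 at 10 nM, where 1 library was below them all, and 4 of 5 libraries were below the lowest control at 1 µM. ARG1 at 1 µM had a log2 fold change of -0.79 (SE 0.283, limma adjusted p = 0.182), and the mean was 43.96% of the control mean. Set against 100 pM instead of control, a comparison added after these values were seen, the 1 µM group had a log2 difference of -1.25 in ARG1 (SE 0.283, limma adjusted p = 0.0201), where 171 of 9755 genes were called (1.75%) and no other member. Against 10 nM the difference in ARG1 was -1.10 (SE 0.283, limma adjusted p = 1), and limma called 0 of 9755 genes there (0%), with 324 genes at an unadjusted p under 0.05.

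ASS1 (chr9:130444929-130501274), the most abundant member, was 155, 118, 152, 121 and 79.3 FPKM in the controls. It was 115, 91.6, 45.3, 124 and 64.3 at 10 nM and 58.7, 90.3, 106, 103 and 69.8 at 1 µM. Both treated ranges of ASS1 overlapped the controls, with 2 of 5 libraries below the lowest control at each dose. ASS1 had a log2 fold change of -0.56 at 10 nM (SE 0.277, limma adjusted p = 0.865) and -0.54 at 1 µM (SE 0.277, limma adjusted p = 0.398), and the 2 doses differed by 0.02 (limma adjusted p = 1.0). The 11 pseudogene names of ASS1 in the tables reached at most 1.35% of the ASS1 level in a library, against 4.39% for the 1 name of ASL and 0.499% for the 3 names of GLUL.

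OTC, the enzyme after CPS1 in the mitochondrion (chrX:38352545-38421450), was 2.88, 3.55, 3.70, 4.25 and 2.02 FPKM in the controls and 0.442, 3.07, 3.05, 4.25 and 2.73 at 1 µM. Library 1 of the 1 µM group was below every control in OTC, library 4 was level with the highest control, and the other 3 lay within the control range. OTC had a log2 fold change of -0.30 (SE 0.305, limma adjusted p = 0.647), and it was 0.05 after quantile normalization. ASL (chr7:66075798-66093558) was 46.8, 32.2, 26.4, 29.6 and 14.1 FPKM in the controls and 19.3, 37.3, 40.3, 44.9 and 19.8 at 1 µM, and the groups overlapped almost entirely. ASL had a log2 fold change of 0.12 (SE 0.306, limma adjusted p = 0.862), but its 2 most abundant transcripts had opposite signs, 0.78 for ENST00000380839 and -0.81 for ENST00000487982 (limma adjusted p among transcripts 0.694 and 0.683). Transcripts of ASL were assembled in 1 locus with those of CRCP and AC068533.4, which limits how well its level was separated from theirs. For OTC and ASL an interval of 2 SE about the fold change ran from -0.91 to 0.31 and from -0.49 to 0.73, so neither a decrease nor an increase was shown.

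SLC25A13, the aspartate carrier (chr7:96120220-96322147, minus strand), was 27.0, 29.2, 25.1, 28.2 and 16.8 FPKM in the controls. It was 21.1, 21.9, 10.4, 29.6 and 12.3 at 10 nM and 7.94, 18.7, 16.4, 19.6 and 13.4 at 1 µM. At 1 µM 3 of 5 libraries were below the lowest control, which was the fifth control library. SLC25A13 at 1 µM had a log2 fold change of -0.73 (SE 0.283, limma adjusted p = 0.233). It passed the threshold after 75th percentile scaling (-0.58, adjusted p = 0.0433), quantile normalization (-0.53, adjusted p = 0.00447) and array weights (-0.56, adjusted p = 0.0224). These settings called 592, 1085 and 946 of all 9755 genes, beside 182 in the main fit. Among the members other than CPS1, the slope of SLC25A13 over dose steps came nearest to the threshold (-0.26 per step, SE 0.0865, limma adjusted p = 0.091). Without control library 5 that slope was -0.31 (limma adjusted p = 0.0253).

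SLC25A15, the ornithine carrier (chr13:40789412-40810111), was 4.48, 4.26, 4.75, 4.09 and 0.634 FPKM in the controls and 2.83, 5.92, 5.33, 4.29 and 4.73 at 1 µM. Only the fifth control library was far below the others. The log2 fold change of SLC25A15 at 1 µM was 0.38 (SE 0.311, limma adjusted p = 0.581). Without control library 5 it was 0.03 (SE 0.249, limma adjusted p = 0.931), so the higher value rested on that library. Its 5 pseudogene names reached 16.6% of the SLC25A15 level in control library 5 and at most 52.1%, in library 1 at 1 mg/L glyphosate, where SLC25A15 was at 0.342 FPKM.

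Of the genes around the cycle, GLUL (chr1:182381704-182392206, minus strand) was 65.6, 75.4, 76.9, 70.6 and 58.8 FPKM in the controls, the smallest SD relative to the mean among the members in the controls. It was 39.3, 52.0, 58.6, 85.7 and 49.0 at 1 µM, with 4 of 5 libraries below the lowest control and 1 above the highest. GLUL had a log2 fold change of -0.32 (SE 0.315, limma adjusted p = 0.632). GLS2 (chr12:56470944-56488414, minus strand), not tested by limma, was 2.23, 3.79, 2.05, 1.97 and 1.57 FPKM in the controls and 0.920, 1.46, 1.05, 2.52 and 0.846 at 1 µM. The mean of GLS2 at 1 µM was 58.6% of the control mean, and an exact permutation test gave p = 0.0635. NAGS (chr17:44004546-44009063) was between 0.196 and 0.373 FPKM in the controls and between 0.160 and 0.431 at 1 µM, and the means of NAGS, 0.275 and 0.286, differed by less than the SD.

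To set the members side by side with CPS1 in each library, each was expressed relative to it, as the difference of the log2(FPKM + 1) values. Since CPS1 was known to be lower, ratios to it are a description and no separate evidence on a member. By mean, all 9 were higher relative to CPS1 in the 3 PCB 126 groups, as were 95.7%, 97.6% and 97.8% of all tested genes at 100 pM, 10 nM and 1 µM. At 1 µM the mean difference from the controls ran from 0.37 for ARG1 to 1.54 for SLC25A15, beside a median of 0.90 over all tested genes. For OTC the ratio was -0.80 ± 0.331 (SD, n = 5) in the controls and 0.06 ± 0.284 at 1 µM, a difference of 0.86. The 5 treated libraries lay above all 5 controls for OTC, NAGS, SLC25A15 and GLUL, 4 of 9 members, and for 4921 of 9754 tested genes (50.5%). The smallest differences were those of ARG1 (0.37) and SLC25A13 (0.43), the members whose own fold changes were lowest after CPS1. Without a pseudocount the ratio of ARG1 differed by 0.04. For NAGS the ratio chiefly shows the change of CPS1, since NAGS stayed below 1 FPKM.

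At 1 µM 7 of the 9 ratios had an exact p under 0.05, where 76% of all tested genes did. At 10 nM 5 did (58.6% of all genes) and at 100 pM 1, that of ARG1 (13.5%). These shares lie near those of all genes, so the ratios set no member apart. In the 4 herbicide groups 0 of 36 did, beside 0.839% of all genes at 10 µg/L glyphosate, 1.74% at 1 mg/L, 0.315% at 0.1 g/L and 0.619% with Roundup. After Benjamini-Hochberg adjustment over the 63 ratios none passed 0.05: 7 ratios were at the smallest p these splits allow and reached an adjusted value of 0.0714, and 11 at that p would have been needed. All 63 ratios share CPS1 and the control libraries, so they are not independent of each other.

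**Figure D3:**
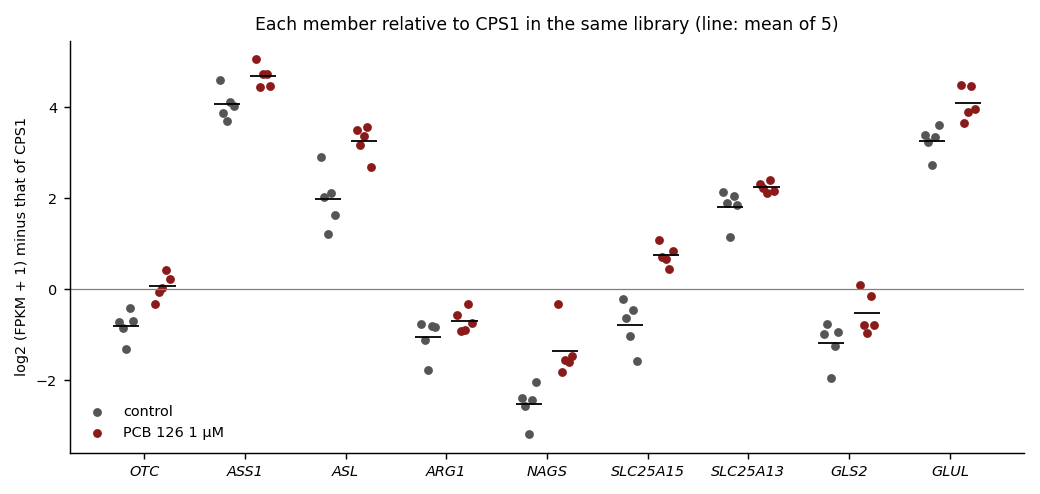
Log2(FPKM + 1) of each of the other 9 members minus that of CPS1 in the same library (vertical axis), for the 5 control libraries (grey) and the 5 libraries of PCB 126 1 µM (dark red), with the mean as a line. The treated means lie above the control means for all 9, by 0.37 (ARG1) to 1.54 (SLC25A15).

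The level of CPS1 was made up of several transcripts. The transcript that spans the coding gene, ENST00000233072 with 38 exons (chr2:210556538-210679107), held 50.3% of the CPS1 FPKM on average over all libraries. It was 2.98, 3.18, 2.32, 3.42 and 1.75 FPKM in the controls, 1.42, 1.37, 0.880, 2.95 and 0.731 at 10 nM, and 0.628, 1.11, 1.40, 1.56 and 0.661 at 1 µM. As for the whole gene, all 5 libraries of ENST00000233072 at 1 µM lay below all controls, with a log2 fold change of -0.85 (SE 0.275) that did not pass the threshold among transcripts (limma adjusted p = 0.251). ENST00000417946, which starts upstream and has 5 exons (17.0% of the gene), averaged 0.888 FPKM in the controls and 0.626 at 1 µM.

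Another CPS1 transcript, ENST00000619804 with 14 exons, was above 0 in 13 of 40 libraries and in none of the 10 libraries at 10 nM and 1 µM. It was estimated at 5.50 FPKM in control library 3 and at 0 in the other 4 controls, and it made up a large part of the highest control value of CPS1. Without it the CPS1 level of that library was 5.25 FPKM, the control mean was 5.54 ± 1.19 (SD, n = 5), and the lowest control remained at 3.90, above the highest 1 µM library at 3.22. Over all transcripts with a variance above 1, limma called 117 of 21181 at 1 µM (0.552%). Among them were 0 of the 27 tested transcripts of the members. At 10 nM and 100 pM 0 of 27 were called too, where only 13 and 1 of all 21181 transcripts were called.

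**Figure D4:**
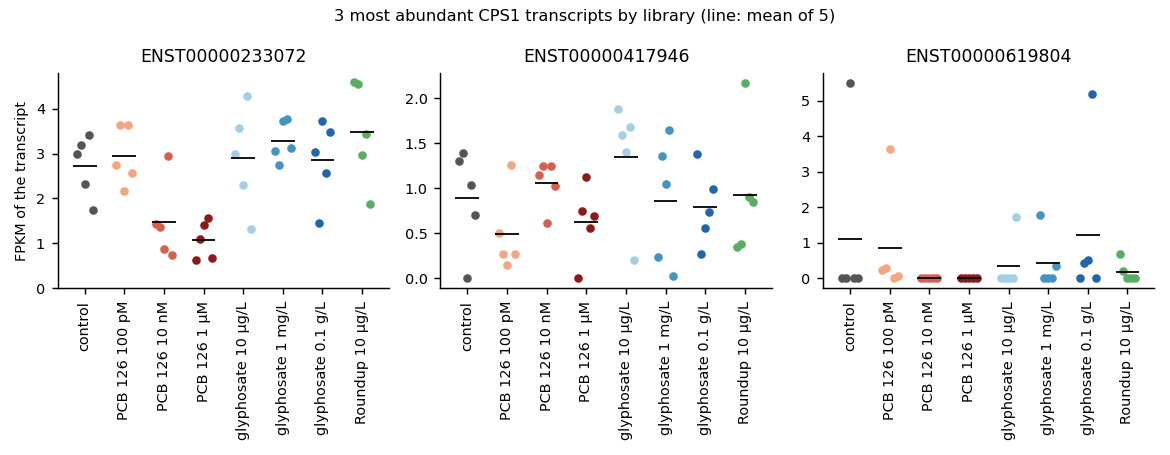
FPKM of the 3 most abundant CPS1 transcripts (vertical axes, 1 panel each) in the 8 groups, with 1 point per library and the mean of 5 as a line. The 38-exon transcript ENST00000233072 is between 0.628 and 1.56 at PCB 126 1 µM and between 1.75 and 3.42 in the controls, and ENST00000619804 is at 0 in all libraries at 10 nM and 1 µM.

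Since PCB 126 acts through AhR, the 250 bases upstream of the start of each member's most abundant transcript were read from GRCh38 and searched on both strands for GCGTG (the AhR core), TTGCNNAA (C/EBP), the glucocorticoid receptor palindrome and CAAAGTCCA (HNF4A), where N is any base. The windows of 4 cycle enzymes that hold no annotated exon are shown, CPS1 as the called member and OTC, ASS1 and ARG1 as enzymes that were not called against control. They are written from 5′ to 3′ on the strand of the gene, for CPS1 at chr2:210556288-210556537, OTC at chrX:38352295-38352544, ASS1 at chr9:130444679-130444928 and ARG1 at chr6:131572894-131573143, all on the plus strand. Capitals mark the only match among the 4, a GCGTG in OTC.
CPS1: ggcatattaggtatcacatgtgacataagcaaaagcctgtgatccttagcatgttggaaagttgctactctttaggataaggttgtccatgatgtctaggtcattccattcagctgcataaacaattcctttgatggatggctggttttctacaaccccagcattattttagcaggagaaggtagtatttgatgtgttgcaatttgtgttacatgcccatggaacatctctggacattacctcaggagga
OTC: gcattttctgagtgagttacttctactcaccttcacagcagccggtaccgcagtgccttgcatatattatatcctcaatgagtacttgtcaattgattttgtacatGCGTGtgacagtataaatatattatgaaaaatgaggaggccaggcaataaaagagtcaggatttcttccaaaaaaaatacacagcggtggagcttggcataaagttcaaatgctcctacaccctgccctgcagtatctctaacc
ASS1: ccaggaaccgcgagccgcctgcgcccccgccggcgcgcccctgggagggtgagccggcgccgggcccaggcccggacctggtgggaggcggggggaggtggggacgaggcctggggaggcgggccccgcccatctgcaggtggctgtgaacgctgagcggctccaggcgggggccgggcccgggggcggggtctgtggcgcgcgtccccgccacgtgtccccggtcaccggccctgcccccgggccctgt
ARG1: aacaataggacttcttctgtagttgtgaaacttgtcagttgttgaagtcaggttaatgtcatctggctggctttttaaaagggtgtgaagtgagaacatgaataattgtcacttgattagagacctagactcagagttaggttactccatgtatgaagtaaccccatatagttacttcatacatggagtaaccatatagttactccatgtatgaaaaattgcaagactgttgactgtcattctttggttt
GCGTG was found in the windows of 5 of the 10 members (OTC, SLC25A15, SLC25A13, GLS2 and GLUL) and in 43.1% of the windows of the 9728 tested genes that had one. CPS1 had none in its window, so the called member had no match. TTGCNNAA was found in GLS2 only (7.11% of all windows), and the other 2 motifs in no member (0.175% and 0.247% of all windows). A match says only that the letters are present, and the absence of one says nothing about sites elsewhere. The windows of CPS1, OTC and ARG1 had a G and C content of 41.2%, 41.2% and 36.4%, and those of the other 7 members ran from 60% to 82%.

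None of the members was called in the glyphosate and Roundup groups. CPS1 was 6.50, 5.77, 5.04, 7.30 and 4.08 FPKM at 10 µg/L glyphosate, 5.51, 6.17, 7.06, 7.69 and 3.68 at 1 mg/L, and 6.11, 2.67, 4.98, 13.4 and 5.09 at 0.1 g/L. It was 6.24, 5.39, 6.97, 5.70 and 3.49 with Roundup at 10 µg/L. All 4 groups of CPS1 overlapped the controls, and the log2 fold changes lay between -0.19 (Roundup, SE 0.284) and -0.09 (1 mg/L, SE 0.284). An interval of 2 SE about the Roundup value ran from -0.75 to 0.38, so a decrease of CPS1 as large as that at 1 µM PCB 126 was outside it, while changes within the interval were not excluded.

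Over the 8 tested members the herbicide fold changes ran from -0.41 (GLUL, Roundup) to 0.24 (ARG1, 1 mg/L glyphosate). GLUL with Roundup was 57.4, 65.6, 48.1, 48.3 and 41.9 FPKM, with 4 of 5 libraries below the lowest control. The exact permutation test gave p = 0.0159 for it, 1 of 6 values under 0.05 among 70 such tests over members and treatments, and limma gave an adjusted p of 0.902. NAGS at 0.1 g/L glyphosate, between 0.111 and 0.242 FPKM, had an exact permutation p = 0.0397 and a mean of 60.8% of control. The members' median was -0.08 at 10 µg/L, 0.07 at 1 mg/L, -0.08 at 0.1 g/L and -0.14 with Roundup, beside -0.04, 0.14, -0.01 and -0.18 for all genes. By limma, 0 of 9533 genes were called (0%) in any of the 4 herbicide comparisons, across the groups or over the glyphosate dose steps. At an unadjusted p under 0.05 there were 95, 125, 84 and 165 genes in the 4 comparisons in the order just given, 130 across the groups and 110 over dose steps. A model without moderation, with library size as a term, called 1 gene at 0.1 g/L and 0 in the other 3 comparisons.

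Genes next to the cycle gave calls of their own at 1 µM PCB 126. Of all 9755 tested genes 119 were lower (1.22%) and 63 higher there. Of 36 genes of arginine, ornithine and glutamate metabolism and transport, 26 were tested, 0 were lower and 1 was higher, with a list median of -0.20 beside -0.26 for all genes. The higher gene was SLC14A1, a urea transporter of the plasma membrane. Its FPKM was between 0 and 0.0782 in the controls, between 0.0159 and 0.479 at 100 pM, between 0.237 and 4.43 at 10 nM and between 1.59 and 4.95 at 1 µM. SLC14A1 was thus above all controls in all 10 libraries of the 2 higher doses, with a log2 fold change of 2.07 at 1 µM (SE 0.304, limma adjusted p = 0.000182) and of 1.36 at 10 nM (SE 0.304, limma adjusted p = 0.0619). It passed the variance filter only through the groups where it was high, with a variance of 0.0224 over the control and 100 pM libraries, so its count is no support for the list.

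Of 33 genes of amino acid breakdown, 23 were tested, 0 were lower and 2 were higher at 1 µM, and the list median was -0.18. All 9755 tested genes held 119 lower (1.22%) and 63 higher at that dose. CTH, which makes cysteine from cystathionine, was 3.30 ± 0.773 FPKM in the controls and 11.6 ± 4.47 at 1 µM (SD, n = 5), a log2 fold change of 1.48 (SE 0.303, limma adjusted p = 0.00665). TAT, tyrosine aminotransferase, went from 0.628 ± 0.160 to 3.66 ± 1.34 FPKM (log2 fold change 1.48, limma adjusted p = 0.00497), and it was the only gene of these 2 lists also called at 10 nM (1.40, limma adjusted p = 0.0322). Both are enzymes that feed on amino acids and not parts of the cycle. TAT passed the variance filter only through the PCB 126 libraries. CTH was between 2.34 and 4.75 FPKM in the control and 100 pM libraries, so most of its variance came from the higher doses. The 2 calls at 1 µM and that of TAT at 10 nM are therefore no support for the list.

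Of 11 pericentral genes 2 were tested and CYP1A2, itself an AhR target, was higher at 10 nM (6.73, limma adjusted p = 3.27e-05) and 1 µM (6.16, limma adjusted p = 2.29e-05). With 2 tested genes, this list cannot describe a zone. Of 7 AhR targets 6 were tested and 5 were higher at 10 nM and at 1 µM, namely CYP1A1, CYP1A2, CYP1B1, TIPARP and ALDH3A1. Of all 9755 tested genes 14 were higher at 10 nM and 63 at 1 µM. For the herbicides 4 of the 7 passed the filter, so the count of higher targets rests in part on genes that passed through the PCB 126 libraries.

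Among 17 regulators known to act on urea cycle or other hepatocyte genes, 15 were tested and 3 were lower at 1 µM, with none higher, beside 1.22% of all genes lower, and the list median was -0.38 beside -0.26 for all genes. PPARGC1A, a coactivator of fasting metabolism, was 6.50 ± 2.36 FPKM in the controls and 1.54 ± 0.658 at 1 µM (log2 fold change -1.54, limma adjusted p = 0.00268). FOXA1, a pioneer factor of liver genes, was 7.70 ± 1.75 and 2.88 ± 1.17 (-1.21, limma adjusted p = 0.0213). NR1H4, the bile acid receptor FXR, was 8.38 ± 3.75 and 2.99 ± 0.927 (-1.19, limma adjusted p = 0.0348). The ranges of all 3 at 1 µM lay below those of the controls, a pattern found for 160 of all 9755 tested genes (1.64%). These 3 were named because they were called, and a link to CPS1 was not tested. These lists were put together with results of these data known, so their counts are a description.

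**Figure D5:**
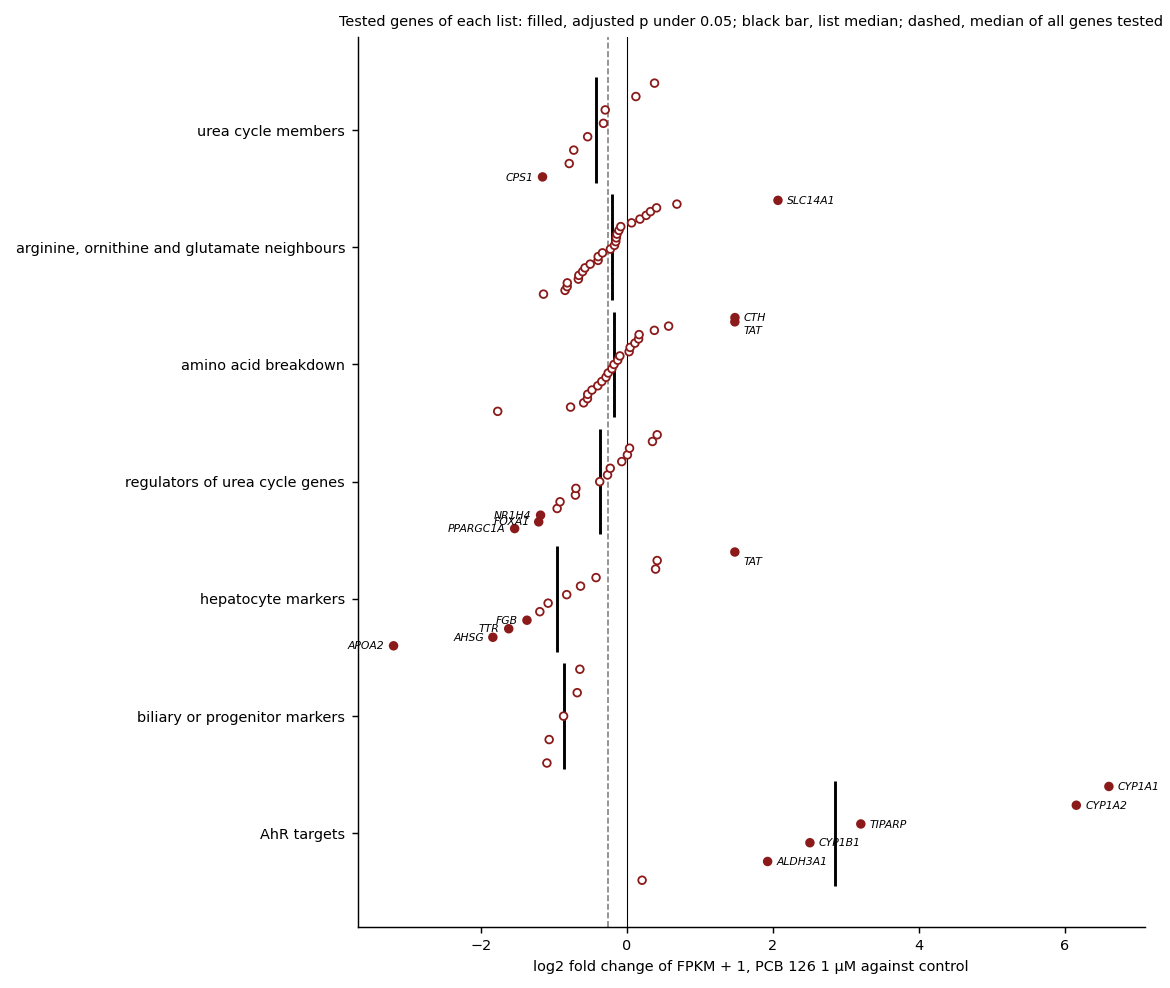
Log2 fold change of FPKM + 1 at PCB 126 1 µM against control (horizontal axis) for the tested genes of 7 lists (rows), with filled and named points at an adjusted p under 0.05, a black bar at the median of each list and a dashed line at the median of all genes (-0.26). CPS1 is the filled point among the members, and SLC14A1, CTH and TAT stand to the right at 2.07, 1.48 and 1.48.

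Over the 20 libraries of the PCB 126 table, the genes whose log2(FPKM + 1) followed CPS1 most closely among 9754 others were CAV1 (Pearson r = 0.962), LPL (0.959), PLXDC2 (0.957), SLIT2 (0.955) and PLXNA2 (0.954). These points share the dose groups and any difference in library composition, so the correlations are a description over 20 libraries. None of the 5 is a gene of the urea cycle. Of the members, SLC25A13 followed CPS1 most closely (r = 0.870, place 176), then ASS1 (0.821, place 595), GLUL (0.688), OTC (0.649), ARG1 (0.606), ASL (0.376) and SLC25A15 (0.218, place 8515). The members thus ranged over most of the order of all genes in their likeness to CPS1.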

How the data were processed

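The authors aligned 75-bp read pairs from rRNA-depleted, directional libraries to GRCh38 with HISAT2, and used StringTie with Ensembl 89 for assembly and quantification (tool names also from the submitters' processing notes). They deposited FPKM per transcript and library for 234960 transcripts, with exon numbers and lengths. Columns with a few values below 0 were handled as a score among the deposited columns, and these values (4 in the PCB 126 table, 6 in the glyphosate table) were set to 0. FPKM hold no read counts, so no count test was run and depth is unknown from the tables.

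From these values, FPKM were summed per gene name and tested with limma 3.58.1 in R 4.3.3 on log2(FPKM + 1), for genes with a variance above 1, all groups of a table in 1 fit, Benjamini-Hochberg threshold 0.05. Dose steps were coded 0 to 3. Single values and ratios to CPS1 were tested by exact permutation in Python 3.11.15. On simulated data for 1 µM against control (9755 genes, 200 changed), the fit recovered 37.5% of genes changed by 1 on the log2 scale, 97.0% at 2 and 100% at 3. It also called 5, 0 and 22 unchanged genes in these 3 runs. The simulated data held no shift common to all genes, unlike the real 1 µM group.

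The members and all gene lists were chosen with earlier results of these data known, and 1 of the lists is not reported here. All members were named, of each list the called genes (at most 5 by p), the 5 genes most like CPS1, and each member's most abundant transcript. Alternatives tried were other filters, a pseudocount of 0.1, 75th percentile and quantile scaling, an ordinary model with a library-size term, array weights, fits of 2 groups, the most abundant transcript per gene, a replicate block, subsets of libraries, and leaving out each library. One subset left out 9 libraries with over 30% of read pairs aligned more than once in the study's alignment summary, which names 38 of the 40 libraries.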

Additional observations from a re-analysis of the deposited data

Results flagged for a closer look

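In each of the 80 sets of 5 libraries (10 members by 8 groups), the gap between the highest or lowest value and the next, as a share of the range of log2(FPKM + 1), was compared with Dixon's limit of 0.71. Chance flags about 1 in 20 such sets, and 6 were over the limit. Control library 5 was the lowest in SLC25A15 (0.634 FPKM) and in SLC25A13 (16.8 FPKM), and library 5 at 10 µg/L glyphosate was the lowest in SLC25A15 (1.66 FPKM). Library 1 at 1 µM PCB 126 was the lowest in OTC (0.442 FPKM), library 1 at 1 mg/L glyphosate was the lowest in ASL (8.35 FPKM), and library 2 at 100 pM PCB 126 was the highest in NAGS (0.319 FPKM). Control library 5, library 1 at 1 µM and library 5 at 10 µg/L glyphosate are 3 of the 9 libraries with over 30% of read pairs aligned more than once. Without these 9 libraries the log2 fold change of OTC at 1 µM was -0.05, that of SLC25A15 0.19 and that of SLC25A13 -0.56 (limma adjusted p = 0.0543).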

How the results depend on the processing

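At 1 µM PCB 126 the 1 called member became 0 with a pseudocount of 0.1, without a filter, with only the 2 groups compared and with the most abundant transcript. Calls over all genes in those settings were 161 of 9755, 173 of 43478, 138 of 9755 and 129 of 8659. The count of called members became 2 after 75th percentile scaling (CPS1 and SLC25A13), 3 after quantile normalization (also ASS1) and 4 with array weights (also ARG1). It stayed 1 without the 9 libraries of high multiple alignment. Of all 9755 genes these settings called 592, 1085, 946 and 520, beside 182 in the main fit. The higher counts of members thus came with more calls over all genes. Leaving out single libraries gave 0 to 1. Over dose steps the 1 called member became 2 after 75th percentile scaling, 4 after quantile normalization and 3 with array weights, and 1 to 3 when single libraries were left out. The 3 settings called 841, 1242 and 1301 of all 9755 genes over dose steps, beside 369 in the main fit. Across the PCB 126 groups 0 became 2 with 75th percentile scaling and with the ordinary model with a library-size term. It became 4 after quantile normalization, 3 with array weights and 1 without the 9 libraries, and was 0 to 1 with single libraries left out. Calls over all 9755 genes in these settings, in the order given, were 483, 325, 714, 915 and 266, beside 136 in the main fit. Array weights also called 1 member at 10 nM (CPS1), beside 239 of all 9755 genes. That setting called 3 members with Roundup and 3 across the herbicide groups, beside 3470 and 5527 of all 9533 genes. With a replicate block by run of library numbers, 2 members were called across the PCB 126 groups (CPS1 and ARG1) and 2 over dose steps (CPS1 and SLC25A13). Of all 9755 genes 270 and 639 were then called, beside 136 and 369 without the block. The block changed no other count of called members. The numbers are not in the labels as replicates and only 39 of 140 pairs of a run had a correlation above 0.1, so the runs were not taken as pairs. Without the 9 libraries 4 of 9 ratios to CPS1 at 1 µM had an exact p under 0.05. Fewer libraries leave fewer splits, and no share of all genes is given for this subset. The count therefore cannot be set against that of all libraries. In the lists at 1 µM, quantile normalization called 3 lower and 5 higher among the arginine neighbours, 4 higher in amino acid breakdown and 1 higher among the regulators. Scaling by the 75th percentile called 3 higher arginine neighbours, as did leaving out the 9 libraries. Of all 9755 genes quantile normalization called 553 lower and 532 higher. The other 2 settings called 345 and 319 lower and 247 and 201 higher. No called value changed sign. The cause of these shifts was not tested.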
